A study of Mus musculus with 34 samples.

Results

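Deletion of Hdac1 in brains that already carried the 5XFAD transgenes was examined by comparing the hippocampus of Hdac1 cKO; 5XFAD (compound transgenic) mice with that of 5XFAD mice. The members are the RNA-seq libraries labelled Hdac1 cKO; 5XFAD 1 to 5 and 5XFAD 1 to 6, so that 11 of the 34 samples of the study enter, 1 mouse per library and 13 months old. The 5XFAD mice were Hdac1f/f, 5XFAD, and the compound mice were Hdac1f/f, Nestin-Cre, 5XFAD, so both groups carried the floxed alleles and the 5XFAD transgenes and only the compound mice carried Cre. An effect of Nestin-Cre alone and an effect of Hdac1 deletion cannot be told apart in this comparison. The study describes its aged mice as males, and deletion of Hdac1 in neurons and astrocytes. Sequencing was by 3′ Digital Gene Expression, which reads the 3′ ends of transcripts, and the values are FPKM, which also divides by transcript length. Bulk tissue was measured, so fewer cells of a type and less RNA per cell cannot be told apart.

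HDAC1 is a class I histone deacetylase that removes acetyl groups from histones and other proteins, mostly as the catalytic subunit of the Sin3, NuRD and CoREST corepressor complexes, where HDAC2 is its close relative. 5XFAD mice express transgenes with familial Alzheimer's disease mutations, among them mutant human APP, in neurons under a Thy1 promoter and accumulate amyloid plaques, around which microglia take on a disease-associated state marked by Tyrobp, Cst7, Clec7a, lysosomal genes and chemokines. Astrocytes around plaques become reactive. The comparison asks which hippocampal transcripts differ when Hdac1 is deleted in the presence of this pathology.

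The libraries differed in depth, which could be estimated only relative to 5XFAD mouse 1 because the files hold no counts. It ranged from 0.603 to 1.21 in 5XFAD mice and from 0.423 in compound mouse 3 to 1.22 in compound mouse 4. Between 7423 and 8577 of 23951 genes were listed at 0 in a library, and such a gene was not detected at that depth. Neuronal markers checked the tissue: all 18 listed genes passed the filter, with a mean log2(FPKM + 1) between 6.07 and 6.26 in every mouse. Choroid plexus markers set some libraries apart. Ttr, the transthyretin gene of that epithelium, was at 3058, 7892, 5554 and 6617 FPKM in 5XFAD mice 1, 2, 3 and 6 and at 13910 FPKM in compound mouse 1, and between 53.8 and 265 FPKM in the other 6 mice. Thy1, whose promoter drives the transgenes, was at 1563 to 2076 FPKM in 5XFAD and 1644 to 2357 FPKM in compound mice, a log2 fold change of 0.07 (SE 0.10), within the spread between mice. Mice without the transgenes averaged far less Thy1, 308 FPKM in control and 351 FPKM in Hdac1 cKO mice. The part of transgene reads in the Thy1 values was not tested.

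The deletion itself was read first. Hdac1 (mm9, chr4:129193348-129219957) was at 6.10 FPKM in the lowest, 8.74 FPKM at the median and 9.64 FPKM in the highest of the 6 5XFAD mice. In the compound mice it was at 1.82, 2.52, 1.15, 1.86 and 2.24 FPKM, so that every compound mouse lay below every 5XFAD mouse. The means were 8.23 ± 1.56 FPKM (SD, n = 6) and 1.92 ± 0.516 FPKM (SD, n = 5). Hdac1 fell by 1.66 on the log2(FPKM + 1) scale (SE 0.16, adjusted p = 0.000785, limma with Benjamini-Hochberg adjustment over all genes tested). The two-sided exact permutation test over the mice gave p = 0.00216, the smallest that 6 against 5 mice allow. The labels do not give the floxed exons, so reads from the 3′ end may lie outside the deleted part. Hdac2 was at 18.8, 23.4, 12.9, 17.6 and 13.7 FPKM in compound mice and from 12.8 to 21.7 FPKM in 5XFAD mice, with overlapping groups (log2 fold change -0.14, SE 0.16, limma adjusted p = 0.857). Of the 24 class I HDACs and corepressor subunits tested, Hdac1, the deleted gene itself, was the only DEG, against 0.593% of all genes lower. A negative fold change was seen for 18 of the 24, Hdac1 included, where 49.9% of all genes were positive. The median was -0.14 against 0.00 over all genes. An unadjusted limma p under 0.05 was reached by 2, Hdac1 and Sin3a, both lower (against 2.7% of all genes).

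**Figure D1:**
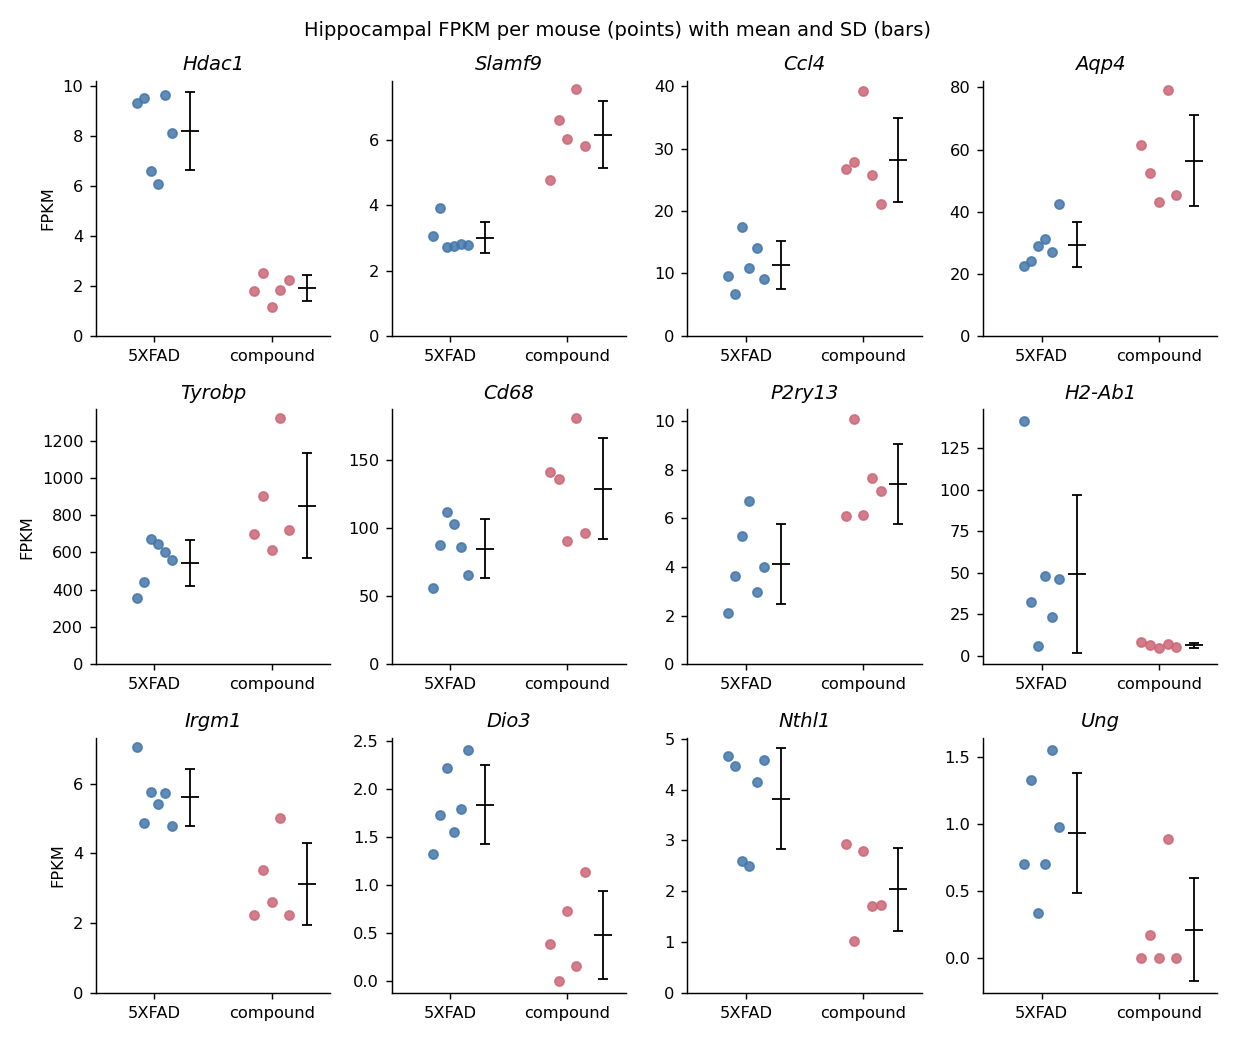
FPKM of 12 genes in each mouse. Each point is 1 mouse (6 5XFAD and 5 compound), the bar is the group mean and the error bar the SD. Hdac1, Slamf9, Ccl4, Aqp4 and Dio3 do not overlap between the groups, whereas 1 5XFAD mouse lies within the compound range for H2-Ab1.

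Differentially expressed genes (DEGs) were taken, with the thresholds of the study's methods, as genes that changed 1.5-fold or more with an unadjusted p under 0.05, here from limma on log2(FPKM + 1). A gene was tested where its mean over these mice reached 0.5 FPKM. Of 14326 genes tested, 184 were DEGs (1.28%). Of these, 99 were higher (0.691% of the genes tested) and 85 lower (0.593%) in compound mice. At an adjusted p under 0.05, Hdac1 was the only gene (0.00698%). Without adjustment 947 genes (6.61%) had a p under 0.05, 560 of them higher (3.91%) and 387 lower (2.7%). The DEGs besides Hdac1 are therefore candidates at an unadjusted threshold. Many of the fold changes below are given with the values or the range of the mice behind them, and others as the fold change alone. The groups did not overlap for 56 genes that were higher (0.391%) and 31 that were lower (0.216%) in compound mice, and 13 upregulated and 5 downregulated DEGs were among them. The downregulated DEGs were expressed at a low level, with a median of 1.70 FPKM over the mice, against 3.42 FPKM for the upregulated DEGs and 6.71 FPKM for all genes tested. The mean in compound mice was under the filter of 0.5 FPKM for 30 of the 85 downregulated DEGs, and the mean in 5XFAD mice for 11 of the 99 upregulated DEGs, so these passed the filter only through the group in which they were higher. In all 5 compound mice 10 downregulated DEGs were at 0, and 3 of these libraries were the shallowest of the 11. Of all genes tested, 83 were at 0 in all 5 compound mice and 34 in all 6 5XFAD mice. Among the latter was 1 upregulated DEG.

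**Figure D2:**
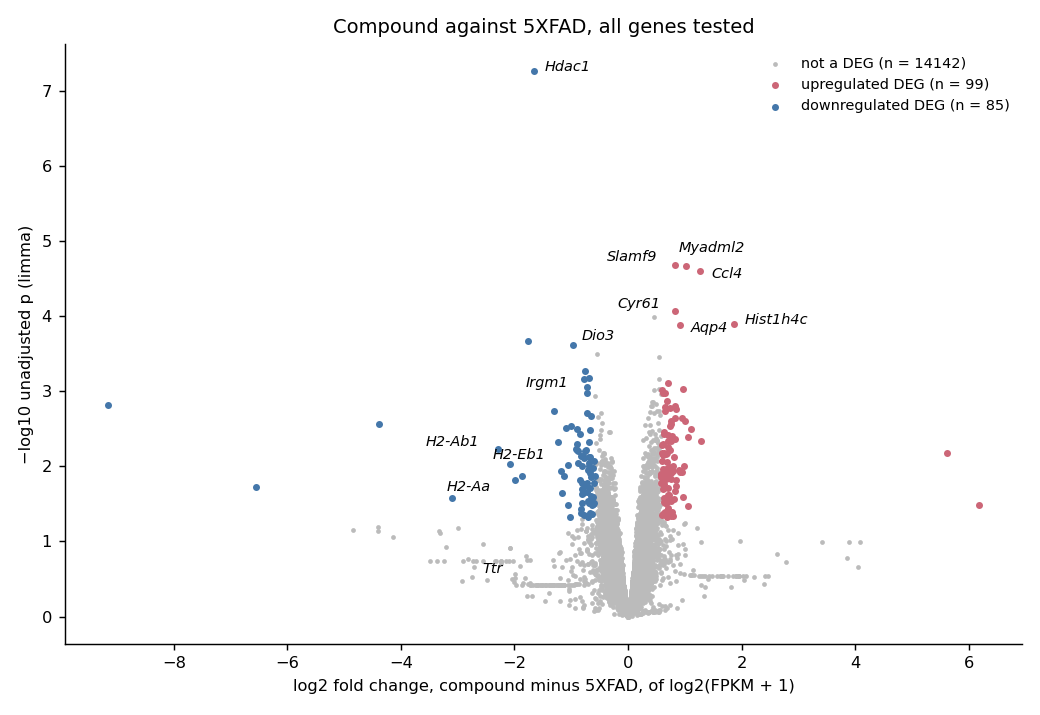
Log2 fold change (compound minus 5XFAD, on the log2(FPKM + 1) scale) against -log10 of the unadjusted limma p for the 14326 genes tested. Points in colour are the 99 upregulated and 85 downregulated DEGs, grey points the 14142 other genes. Hdac1 stands alone at the top on the lower side.

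The 6 upregulated DEGs of smallest p were Slamf9, Myadml2, Ccl4, Cyr61, Hist1h4c and Aqp4. Slamf9 (mm9, chr1:174405489-174408706), a SLAM-family receptor of myeloid cells, was at 2.72, 2.80 and 3.93 FPKM in the lowest, median and highest 5XFAD mouse. It was at 4.78, 6.61, 6.05, 7.56 and 5.81 FPKM in the compound mice, all above the 5XFAD mice. The log2 fold change was 0.83 (SE 0.13, limma adjusted p = 0.0888, exact permutation p = 0.00216). Without 5XFAD, Slamf9 was at a mean of 1.32 FPKM in control and 1.42 FPKM in Hdac1 cKO mice. Ccl4 (mm9, chr11:83476086-83478185), a chemokine that recruits immune cells, was at 6.75, 10.3 and 17.4 FPKM in the lowest, median and highest 5XFAD mouse and at 26.7, 27.9, 39.2, 25.8 and 21.1 FPKM in the compound mice. Again no compound mouse reached down to the 5XFAD range. Its log2 fold change of 1.27 (SE 0.21) had a limma adjusted p of 0.0888.

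Aqp4, the water channel of astrocyte endfeet, was at 22.5, 28.0 and 42.6 FPKM in the lowest, median and highest 5XFAD mouse. The compound mice had 61.5, 52.6, 43.2, 79.2 and 45.3 FPKM, the lowest of them just above the highest 5XFAD mouse. The log2 fold change was 0.91 (SE 0.17, limma adjusted p = 0.234, and 0.0210 with all 4 hippocampal groups in one fit). Id3, which inhibits basic helix-loop-helix transcription factors, was at 47.8 to 86.1 FPKM in 5XFAD mice and at 153, 132, 89.5, 137 and 92.3 FPKM in compound mice (log2 fold change 0.74, SE 0.19). Myadml2 (1.68 to 2.85 FPKM against 3.91 to 7.45 FPKM, log2 fold change 1.02) shared the adjusted p of Slamf9 and Ccl4. Cyr61, a secreted matrix protein and immediate early gene, was at 0.635 to 1.25 FPKM in 5XFAD and 1.94 to 2.90 FPKM in compound mice (log2 fold change 0.82). Hist1h4c, a replication-dependent histone H4 gene that passed the filter only through the compound mice, was at 0 to 0.959 FPKM in 5XFAD mice and at 9.33, 3.44, 2.36, 4.77 and 1.09 FPKM in compound mice (log2 fold change 1.87). Histone H4 genes are near-identical copies, and Hist4h4, another one, went the other way (0 to 3.48 FPKM in 5XFAD and 0 in every compound mouse), so the assignment of reads between copies is uncertain. The remaining upregulated DEGs of the smallest p without overlap were Commd10 (log2 fold change 0.60), the monocarboxylate transporter Slc16a7 (0.62), the eIF4E kinase Mknk1 (0.65), the centromere gene Oip5 (0.84) and the myeloid membrane gene Ms4a6c (0.73). Of these, Commd10, Slc16a7 and Mknk1 were lost as DEGs in 4, 3 and 2 of 22 alternatives.

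Of the 25 listed genes of disease-associated microglia, all tested, 4 were DEGs and all 4 were upregulated (16.0%, against 0.691% of all genes). An unadjusted p under 0.05 was reached by 11, all higher (against 3.91% of all genes), and not by the other 14. A positive fold change was seen for 24 of the 25, against 49.9% of all genes, and the median log2 fold change was 0.37. With quantile normalization 2 were DEGs and the median was 0.31. The DEGs were Ccl4, Ccl3, Tyrobp and Cd68. Tyrobp (mm9, chr7:31198807-31202596), the signalling adaptor of TREM2, was at 357, 579 and 673 FPKM in the lowest, median and highest 5XFAD mouse and at 698, 900, 613, 1318 and 721 FPKM in compound mice. Only compound mouse 3 fell within the 5XFAD range, and compound mouse 4 stood above all others. The log2 fold change was 0.62 (SE 0.21, limma adjusted p = 0.718). Cd68, a lysosomal glycoprotein of phagocytes, was at 55.7 to 112 FPKM in 5XFAD mice and at 141, 136, 90.0, 180 and 96.2 FPKM in compound mice, with compound mice 3 and 5 inside the 5XFAD range. Ccl3, a chemokine encoded beside Ccl4, was at 5.21 to 15.5 FPKM against 24.7, 17.2, 15.3, 30.6 and 16.1 FPKM.

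Below the DEG threshold, Cst7, a cystatin, had a log2 fold change of 0.58, the phagocytic receptor Clec7a 0.52, the lysozyme gene Lyz2 0.56 and the tetraspanin gene Cd63 0.42, all at an unadjusted limma p under 0.05. The lipid receptor Trem2 (0.32) and Apoe (0.01) were not past that threshold. Compound mouse 4 carried a large share of the group's difference. The mean log2(FPKM + 1) over the 25 genes was between 5.00 and 5.31 in the 5XFAD mice and 5.60, 5.58, 5.27, 6.15 and 5.31 in compound mice 1 to 5, so that compound mice 3 and 5 did not stand above the 5XFAD mice. Without compound mouse 4 the list had 2 upregulated DEGs and a median of 0.20, and without 5XFAD mouse 1 it had 1 upregulated DEG and a median of 0.39. Tyrobp was no longer a DEG in either of these fits.

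Markers of resting microglia mostly had a positive fold change too. Of 17 homeostatic microglia genes tested, 16 had a positive fold change (against 49.9% of all genes), 7 had an unadjusted p under 0.05, all higher (against 3.91%), and the median log2 fold change was 0.29. The DEG among them, 1 of 17 against 0.691% of all genes, was P2ry13 (mm9, chr3:59011818-59014804), a purinergic receptor. It was at 2.12, 3.81 and 6.70 FPKM in the lowest, median and highest 5XFAD mouse and at 6.09, 10.1, 6.13, 7.66 and 7.14 FPKM in compound mice (log2 fold change 0.76, SE 0.21). Its relative P2ry12, which senses nucleotides from damaged cells, had a log2 fold change of 0.49. Siglech was at 0.53 and the fractalkine receptor gene Cx3cr1 at 0.29. The mean level of this list was 4.13 to 4.38 in 5XFAD mice and 4.31, 4.62, 4.37, 5.02 and 4.39 in compound mice, and its median without compound mouse 4 was 0.14. The sum of its genes was 590.1 to 752 FPKM in 5XFAD and 646 to 1294 FPKM in compound mice.

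The related immune lists held 1 to 3 DEGs each, all upregulated, which is 3.03% to 10.3% of their tested members against 0.691% of all genes. Among Toll-like and Fc receptors, 1 of 14 was a DEG. This was Fcer1g, the shared Fc receptor γ chain (log2 fold change 0.60, 179 to 322 FPKM against 243 to 472 FPKM). Its call was lost in 9 of 22 alternatives, among them quantile normalization and leaving out compound mouse 4. The antibody receptors Fcgr1 (0.53) and Fcgr2b (0.49) had an unadjusted p under 0.05. Among 23 leukocyte activation genes the DEGs were Slamf9 and the costimulatory ligand gene Cd86, the latter at 0.440 to 2.19 FPKM in 5XFAD and 0.727 to 3.49 FPKM in compound mice (log2 fold change 0.70). Among 14 complement genes the DEG was Itgb2, the β chain of complement receptor 3 (log2 fold change 0.67). The complement gene C4b went the other way, at 13.4 to 24.0 FPKM in 5XFAD and 7.81 to 21.7 FPKM in compound mice (log2 fold change -0.54, SE 0.22). Among 29 chemokine, cytokine and receptor genes the DEGs were Ccl4, Ccl3 and Ccl2. This list shares Ccl3, Ccl4 and Ccl6 with the disease-associated microglia list. Ccl2, which recruits monocytes through CCR2, was at 0 to 1.38 FPKM in 5XFAD mice and at 1.07, 1.48, 3.37, 1.36 and 1.25 FPKM in compound mice (log2 fold change 0.79). The interferon-γ-induced chemokine gene Cxcl9, which passed the filter only through the 5XFAD mice, had a log2 fold change of -0.50. Of 33 lysosomal genes, 27 had a positive fold change (against 49.9% of all genes) with a median of 0.18, and 8 had an unadjusted p under 0.05, all higher (against 3.91%). Their DEG was Cd68, and β-glucuronidase (Gusb, 0.51) and cathepsin S (Ctss, 0.42) were below the fold threshold. The lysosomal list shares 5 genes with the disease-associated microglia list, and without compound mouse 4 its median was 0.10, with no DEG. With quantile normalization it also had no DEG.

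**Figure D3:**
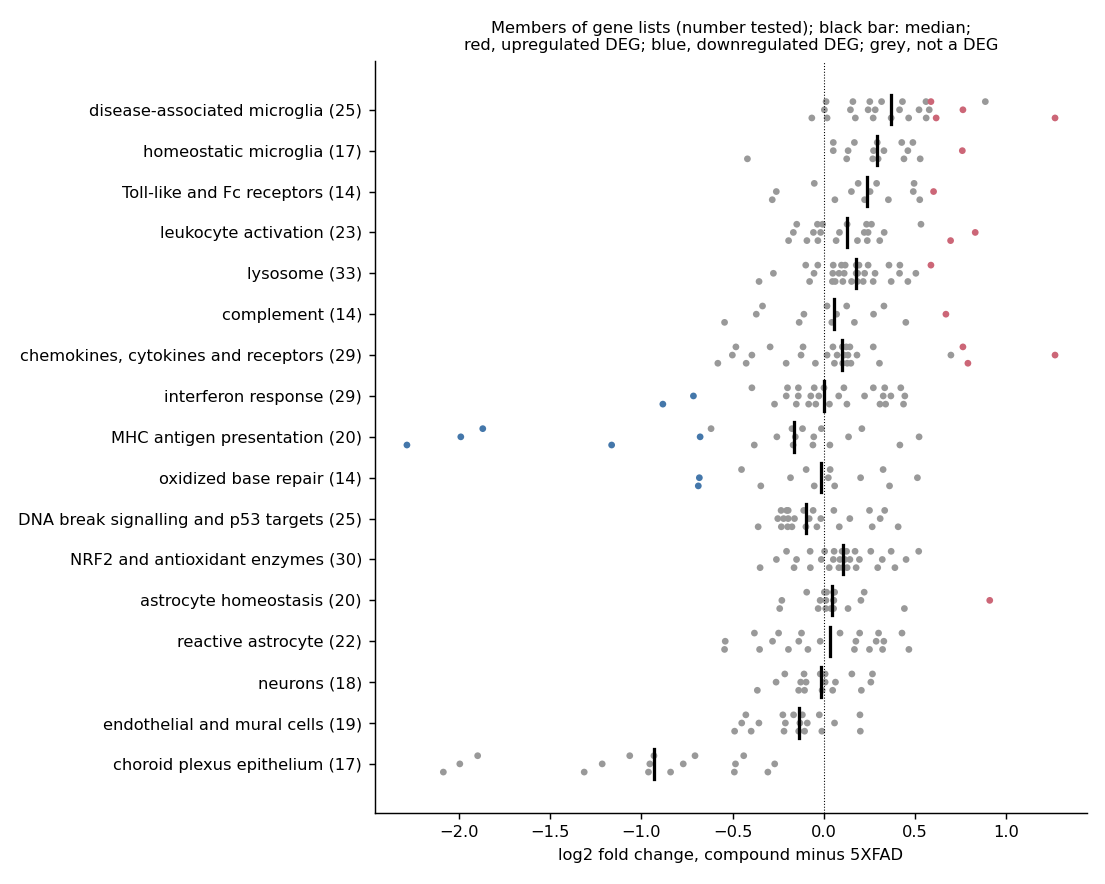
Median log2 fold change (compound minus 5XFAD) of 17 gene lists, with the fold changes of their tested members. Disease-associated microglia (median 0.37) and homeostatic microglia (median 0.29) lie to the right of 0, and choroid plexus epithelium (median -0.93) lies farthest to the left.

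**Figure D4:**
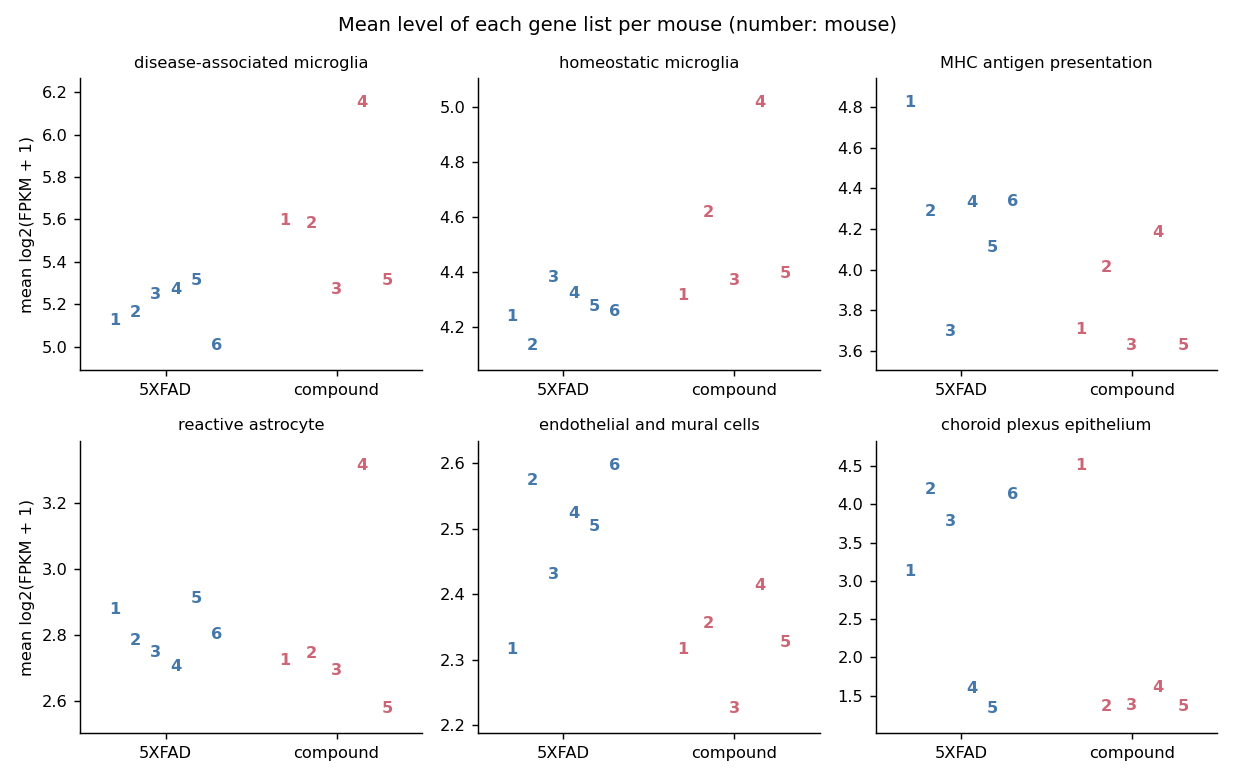
Mean log2(FPKM + 1) over the tested genes of 6 lists in each mouse, with each mouse drawn as its number. Compound mouse 4 is highest for both microglia lists and for reactive astrocyte genes (3.31), and compound mouse 1 stands apart for choroid plexus genes (4.51).

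Genes of antigen presentation by MHC class II were among the downregulated DEGs. MHC class II molecules present peptides to CD4+ T cells, and their α and β chains, encoded by H2-Aa, H2-Ab1 and H2-Eb1, are loaded with the help of the invariant chain Cd74. H2-Ab1 (mm9, chr17:34400154-34406363) was at 141, 32.0, 5.75, 47.8, 23.1 and 46.0 FPKM in 5XFAD mice 1 to 6. In the compound mice it was at 8.13, 6.29, 4.52, 7.06 and 5.15 FPKM. Thus 5 of the 6 5XFAD mice were above every compound mouse, and 5XFAD mouse 3 was not. The log2 fold change was -2.29 (SE 0.65, limma adjusted p = 0.711, two-sided exact permutation p = 0.0108). H2-Aa (mm9, chr17:34406276-34424772) was at 2.30, 21.5 and 69.1 FPKM in the lowest, median and highest 5XFAD mouse and at 3.34, 5.48, 4.23, 6.01 and 1.96 FPKM in compound mice (log2 fold change -1.99, SE 0.67). Its coordinates overlap those of H2-Ab1, and strand use in the counting is not given in the sources used here, so the genes may share reads.

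H2-Eb1 (mm9, chr17:34442828-34453144) was at 0.582, 9.33 and 28.9 FPKM in the lowest, median and highest 5XFAD mouse and at 1.98, 2.02, 1.11, 1.40 and 0.386 FPKM in compound mice (log2 fold change -1.87, SE 0.62). Cd74 had a median of 2.47 FPKM in 5XFAD mice and was at 0.399 to 1.30 FPKM in compound mice (log2 fold change -1.16, SE 0.45). For all 4 genes 5XFAD mouse 1 was the highest and 5XFAD mouse 3 the lowest of the 5XFAD group. The peptide transporter gene Tap1, which serves class I, was at 2.14 to 4.15 FPKM against 0.604, 1.45, 0.459, 3.50 and 1.77 FPKM (log2 fold change -0.68). These 5 were the DEGs of the 20 antigen presentation genes tested, all downregulated, against 0.593% of all genes. The list as a whole had 5 positive and 15 negative fold changes and a median of -0.16. Cathepsin S, which trims the invariant chain, and the class I gene H2-M3 were higher instead, with log2 fold changes of 0.42 and 0.52. H2-Ab1 and H2-Eb1 were DEGs in every alternative, whereas with relative depth as a covariate, chosen after seeing the data, 2 of the list were DEGs, and without compound mouse 3, 3 were.

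Markers of other cells that could carry class II were compared in the same mice. The choroid plexus list was at 3.12, 4.20, 3.77, 1.59, 1.33 and 4.13 in 5XFAD mice 1 to 6 (mean log2(FPKM + 1)) and at 4.51, 1.36, 1.37, 1.60 and 1.36 in compound mice 1 to 5. All 17 of its genes had a negative fold change and none was a DEG or had an unadjusted p under 0.05. With log2 Ttr as a covariate, an alternative chosen after seeing the data, 5 genes of the antigen presentation list were downregulated DEGs. Border macrophage markers (5 of 10 tested) summed to between 8.74 and 32.1 FPKM in 5XFAD and between 10.7 and 15.5 FPKM in compound mice. Meningeal fibroblast genes mostly had negative fold changes too (11 of 12, median -0.28, where 49.9% of all genes were positive). The DEG, 1 of 12 against 0.593% of all genes lower, was the GABA transporter Slc6a13 (log2 fold change -0.81). It passed the filter only through the 5XFAD mice (means 1.73 and 0.441 FPKM), so the count is no sign of an excess. The part of any of these tissues in the class II values was not tested.

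The interferon response list had 15 positive and 14 negative fold changes among 29 genes tested and a median of 0.00. Its 2 DEGs (6.90% of its tested genes, against 0.593% of all genes lower) were both downregulated and both encode immunity-related GTPases, which interferon-γ induces. Irgm1 (mm9, chr11:48675470-48685185) was at 4.79, 5.57 and 7.06 FPKM in the lowest, median and highest 5XFAD mouse and at 2.23, 3.52, 2.61, 5.01 and 2.24 FPKM in compound mice. Only compound mouse 4 reached the 5XFAD range (log2 fold change -0.71, SE 0.17, limma adjusted p = 0.607, exact permutation p = 0.00649). Igtp (mm9, chr11:58013058-58021093) was at 2.66, 5.37 and 8.22 FPKM against 0.884, 1.96, 2.24, 3.24 and 5.29 FPKM (log2 fold change -0.88, SE 0.29). Both were DEGs in every alternative tried.

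The promoters of Irgm1, Igtp, H2-Aa and H2-Eb1 are shown as RefSeq places them on GRCm38.p6. They run from 250 bases before to 50 bases after the start, 5′ to 3′ on the strand of the gene. Irgm1 is at chr11:48871371-48871670 (minus strand) and Igtp at chr11:58199306-58199605 (plus strand), and capitals mark GAAA, NN (any 2 bases) and GAAA, the core of an interferon-stimulated response element. The run in Irgm1 holds 2 overlapping matches and that in Igtp 1, with both strands searched, while 3.44% of 32851 promoters of this length hold at least 1.
Irgm1: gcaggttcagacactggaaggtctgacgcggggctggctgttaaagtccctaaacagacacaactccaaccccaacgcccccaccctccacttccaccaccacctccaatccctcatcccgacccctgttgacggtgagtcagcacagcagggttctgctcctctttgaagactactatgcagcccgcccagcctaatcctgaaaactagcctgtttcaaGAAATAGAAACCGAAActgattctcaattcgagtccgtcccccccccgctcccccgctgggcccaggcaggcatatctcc
Igtp: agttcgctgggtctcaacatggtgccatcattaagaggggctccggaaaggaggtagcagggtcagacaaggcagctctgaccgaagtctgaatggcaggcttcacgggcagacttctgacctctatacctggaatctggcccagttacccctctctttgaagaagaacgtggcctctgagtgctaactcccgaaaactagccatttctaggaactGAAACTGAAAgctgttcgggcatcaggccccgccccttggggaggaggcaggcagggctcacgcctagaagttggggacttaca
H2-Aa is at chr17:34287774-34288073 (minus strand) and H2-Eb1 at chr17:34305617-34305916 (plus strand), and capitals mark CCAAT or its reverse ATTGG, the letters of the Y box of class II promoters. The H2-Aa window holds 1 and the H2-Eb1 window 2, and 37.4% of all promoters hold at least 1, so these 5 letters are common.
H2-Aa: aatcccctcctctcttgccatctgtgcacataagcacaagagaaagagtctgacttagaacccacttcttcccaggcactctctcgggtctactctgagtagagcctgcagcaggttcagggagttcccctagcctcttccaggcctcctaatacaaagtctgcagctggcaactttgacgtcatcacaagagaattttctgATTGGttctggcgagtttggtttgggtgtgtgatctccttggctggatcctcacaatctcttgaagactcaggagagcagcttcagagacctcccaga
H2-Eb1: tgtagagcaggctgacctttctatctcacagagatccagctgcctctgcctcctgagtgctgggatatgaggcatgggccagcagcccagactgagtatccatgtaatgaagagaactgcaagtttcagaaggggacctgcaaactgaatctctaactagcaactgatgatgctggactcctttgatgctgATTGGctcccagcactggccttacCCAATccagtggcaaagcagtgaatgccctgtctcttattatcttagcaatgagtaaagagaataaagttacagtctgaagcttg

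Repair of oxidized bases, a process the study is concerned with, was followed through 14 tested genes of base excision repair. Of these, 2 were DEGs and both were downregulated, against 0.593% of all genes. Ung, one of the 2, passed the filter only through the 5XFAD mice, in which it was higher (mean 0.932 FPKM, against 0.212 FPKM in compound mice), so the count is no sign of an excess. Nthl1 (mm9, chr17:24769627-24775783), a glycosylase that removes oxidized pyrimidines, was at 2.50, 4.30 and 4.65 FPKM in the lowest, median and highest 5XFAD mouse and at 2.94, 1.01, 2.78, 1.72 and 1.72 FPKM in compound mice. Compound mice 1 and 3 lay within the 5XFAD range. The log2 fold change was -0.68 (SE 0.20, limma adjusted p = 0.7, exact permutation p = 0.0216). Ung (mm9, chr5:114580395-114589332), which removes uracil from DNA, was at 0.334, 0.840 and 1.55 FPKM against 0, 0.174, 0, 0.885 and 0 FPKM. At these levels it was not detected in 3 compound libraries, of which 2 were among the shallowest, and it was not a DEG with relative depth as a covariate (log2 fold change -0.69, SE 0.22, without that covariate). Another glycosylase gene, Neil1, was not a DEG and passed the filter only through the compound mice. It was at 0 to 0.513 FPKM in 5XFAD and 0.333 to 1.56 FPKM in compound mice (log2 fold change 0.51). The list had 7 positive and 7 negative fold changes and a median of -0.01.

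Ogg1, the 8-oxoguanine glycosylase, was below the filter of 0.5 FPKM on the mean. It was at 0.635, 0.460, 0.212, 0.745, 0.370 and 0 FPKM in 5XFAD mice and at 0, 0, 0.304, 0.613 and 0.141 FPKM in compound mice, with overlapping groups (two-sided exact permutation p = 0.245). Of the 25 tested genes of DNA break signalling and p53 targets, none was a DEG or had an unadjusted limma p under 0.05, and their median was -0.10. Among 30 antioxidant enzymes and NRF2 targets none was a DEG. An unadjusted p under 0.05 was reached by 3, all higher (against 3.91% of all genes), the peroxiredoxin genes Prdx1 (0.37), Prdx3 (0.32) and Prdx6 (0.39). The genes whose promoters the study examined, with the ageing-related gene Kl, gave no DEG on this background and none at an unadjusted limma p under 0.05. Their log2 fold changes were -0.65 for Prkcd, -0.71 for Slc4a5, -0.48 for Kl, -0.14 for Slc18a2, 0.01 for Cdc25b, 0.07 for Sertad1, 0.20 for Stk40 and 0.20 for Gpx3. Slc4a5 and Kl are choroid plexus genes, and compound mouse 1 held 3.60 FPKM of Slc4a5 where the other 4 compound mice held 0. Without compound mouse 1 both were downregulated DEGs (-1.15 for Slc4a5 and -0.90 for Kl). Prkcd is also on the thalamus list, whose level was highest in 5XFAD mouse 6, and that mouse held 28.5 FPKM of Prkcd against 6.74 to 12.3 FPKM in the other 5XFAD mice. Without 5XFAD mouse 6 its log2 fold change was -0.40, and without compound mouse 3 it was -0.89, a downregulated DEG. The part of adjoining tissue in these values was not tested.

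The promoters of the pair of downregulated repair genes were searched for the GC box GGGGCGGGG, which Sp-family factors bind, since the study asks about guanine-rich promoters. It occurred on either strand in 11.4% of all 32851 RefSeq promoters, and its shorter core GGGCGG, which lies within it, in 35.7%. Ung, at GRCm38.p6 chr5:114130185-114130484 (plus strand), held 2 GC boxes, in capitals. Nthl1, at chr17:24632432-24632731 (plus strand), held none and 1 shorter core, in capitals as its reverse. A share over the DEGs was not computed, because 67.7% of the upregulated and 64.7% of the downregulated DEGs had a promoter in the RefSeq table, too few for such a check.
Ung: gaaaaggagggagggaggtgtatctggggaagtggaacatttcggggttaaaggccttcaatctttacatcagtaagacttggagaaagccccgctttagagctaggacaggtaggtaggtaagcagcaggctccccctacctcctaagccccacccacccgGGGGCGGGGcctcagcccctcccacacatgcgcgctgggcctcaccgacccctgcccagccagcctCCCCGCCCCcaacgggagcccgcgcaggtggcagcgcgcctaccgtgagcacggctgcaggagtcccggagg
Nthl1: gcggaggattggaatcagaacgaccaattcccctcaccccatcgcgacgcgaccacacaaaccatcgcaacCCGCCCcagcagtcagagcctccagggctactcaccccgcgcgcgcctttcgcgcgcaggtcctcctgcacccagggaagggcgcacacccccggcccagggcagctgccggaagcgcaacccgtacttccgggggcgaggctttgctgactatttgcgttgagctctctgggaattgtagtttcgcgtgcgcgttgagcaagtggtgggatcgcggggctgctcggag

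Astrocyte genes gave a mixed picture. Of 20 genes of astrocyte homeostasis, Aqp4 was the only DEG, against 0.691% of all genes higher. An unadjusted limma p under 0.05 was reached by 2 that were higher (against 3.91% of all genes) and by 1 that was lower (against 2.7%). The gap junction gene Gja1 was at 32.4 to 45.5 FPKM in 5XFAD and 42.5 to 57.2 FPKM in compound mice (log2 fold change 0.44, SE 0.11). Glutamine synthetase (Glul) was lower, at 198 to 249 FPKM against 166 to 204 FPKM (-0.23, SE 0.08). The median of the list was 0.05. Among 22 reactive astrocyte genes there was no DEG, and the median was 0.04. An unadjusted limma p under 0.05 was reached by 3, against 6.61% of all genes (S100a10 at 0.43, C4b and Cyp4f15 both at -0.54). Gfap, the filament protein of reactive astrocytes, was at 81.3 to 118 FPKM in 5XFAD mice and at 89.8, 120, 98.6, 176 and 89.0 FPKM in compound mice (log2 fold change 0.20, SE 0.17, limma adjusted p = 0.828), with compound mouse 4 the highest. Hopx, a homeodomain protein gene of astrocytes and radial glia-like progenitors, was a DEG, at 23.8 to 38.8 FPKM against 67.9, 42.1, 58.3, 37.4 and 47.3 FPKM (log2 fold change 0.65, SE 0.16). It was followed on the list of newborn neurons and progenitors, as 1 DEG of 13 tested genes, against 0.691% of all genes higher. Most of that list went the other way, with 4 positive and 9 negative fold changes and a median of -0.10.

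The list of 18 neuronal markers and that of APP processing held no DEG. Of the 18 neuronal markers 2 had an unadjusted limma p under 0.05, both higher (against 3.91% of all genes), and the median was -0.01. Snap25, of the synaptic vesicle fusion machinery, had a log2 fold change of 0.21. Of 22 tested genes of APP processing and the transgene promoter, none had an unadjusted p under 0.05, and the median was 0.03. The endothelial and mural cell list held no DEG either. Of its 19 genes, 5 had an unadjusted p under 0.05, all lower (against 2.7% of all genes), and 14 did not. A negative fold change was seen for 16 of the 19, with a median of -0.14. The 5 genes were the tight junction gene Cldn5 (-0.49), the VEGF receptor genes Kdr (-0.45) and Flt1 (-0.36), the adhesion gene Pecam1 (-0.43) and the vitronectin gene Vtn of pericytes (-0.40). Pecam1 passed the filter only through the 5XFAD mice (means 0.932 and 0.421 FPKM), so the count of 5 is no sign of an excess. Outside the list, the endothelial transcription factor gene Sox18, looked up after its values were seen, was a downregulated DEG (log2 fold change -0.59). Without 5XFAD, Sox18 was a DEG in the opposite direction, higher in Hdac1 cKO than in control mice (0.66, interaction unadjusted p = 0.000588, limma). Flt1 was at 4.35 to 6.18 FPKM in 5XFAD and 3.39 to 4.19 FPKM in compound mice, and Kdr at 0.649 to 1.33 FPKM against 0.432 to 0.621 FPKM, without overlap for either.

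The remaining downregulated DEGs without overlap were few. Dio3 (mm9, chr12:111517278-111519307), the deiodinase that inactivates thyroid hormone, was at 1.33, 1.76 and 2.41 FPKM in the lowest, median and highest 5XFAD mouse and at 0.387, 0, 0.733, 0.165 and 1.13 FPKM in compound mice. Its log2 fold change of -0.98 (SE 0.20) had a limma adjusted p of 0.35 and an exact permutation p of 0.00216. Btc, the EGF-family ligand betacellulin, was at 0.509 to 1.36 FPKM against 0 to 0.359 FPKM (log2 fold change -0.76). E130102H24Rik (11.9 to 19.1 FPKM against 5.97 to 11.1 FPKM, -0.68) and Igbp1b (0.362 to 1.49 FPKM against 0 to 0.354 FPKM, -0.73) completed the set. Btc (means 1.03 and 0.189 FPKM) and Igbp1b (0.924 and 0.151 FPKM) passed the filter only through the 5XFAD mice, as did Dio3 (1.84 and 0.484 FPKM), so their separation from the compound mice is given as values and as no more. Igbp1b has a close paralogue, Igbp1, so its reads may be shared.

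Whether the effect of Hdac1 loss depended on the 5XFAD background was tested as an interaction over all 20 hippocampal mice, with the difference between 5 Hdac1 cKO mice (Hdac1f/f, Nestin-Cre) and 4 control mice (Hdac1f/f) on the other side. These mice carry no 5XFAD transgenes and were 13 to 14 months old, against 13 months for both 5XFAD groups. The pair of comparisons shares no mice. No gene of 14389 had an adjusted p under 0.05 (0%, limma), and 1290 (8.97%) had an unadjusted p under 0.05. The lowest p belonged to Cd63, a tetraspanin of late endosomes. The 6 5XFAD mice had a mean of 351 ± 82.9 FPKM (SD), the 5 compound mice 470 ± 108, the 4 control mice 387 ± 68.9 and the 5 Hdac1 cKO mice 216 ± 27.8. The log2 fold changes were 0.42 with and -0.83 without 5XFAD (interaction adjusted p = 0.226, limma). For Hdac1 they were -1.66 and -1.23 (unadjusted p of the interaction contrast over the 20 mice 0.0735, limma).

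The fold changes of the DEGs without 5XFAD are given beside those above. Of the 85 downregulated DEGs, 78 were tested there too, and 59 of the 78 (75.6%) were also lower in Hdac1 cKO than in control mice, against 49.9% of all 13912 genes tested in both. Of these 12 were DEGs the same way, Hdac1 among them, where 2.87% of the 14265 genes tested without 5XFAD were downregulated DEGs. Of the 85, 30 passed the filter only through the 5XFAD mice, in which they were higher. The counts of 59 and 12 were not repeated without such genes, so they are no sign of an excess. H2-Ab1 was not one of the 12, with a log2 fold change of -0.82 there (SE 0.66). H2-Aa had -1.32 there and H2-Eb1 -1.23. The interaction p of H2-Ab1, H2-Aa and H2-Eb1 was 0.145, 0.476 and 0.435 (unadjusted, limma), and Cd74 was below the filter without 5XFAD. The solute carrier genes Slc6a13 (-0.81 and -0.71), Slc22a18 (-0.71 and -0.93) and Slc39a4 (-0.67 and -1.35) and the angiotensin-converting enzyme gene Ace (-0.70 and -1.75) were also DEGs in both. On the 5XFAD background these 3 carriers passed the filter only through the 5XFAD mice. Slc39a4 was lost as a DEG on the 5XFAD background in 13 of 22 alternatives, and Slc6a13 and Slc39a4 both with log2 Ttr as a covariate. Choroid plexus genes had a negative median in both comparisons too, of -0.93 with and -2.58 without 5XFAD, where Ttr averaged 12777 FPKM in control and 390 FPKM in Hdac1 cKO mice. Their part in the shared direction of the downregulated DEGs was not tested. Of the 99 upregulated DEGs, 86 were tested there, and 44 of the 86 (51.2%) had the same sign, against 50.1% of all genes, with 2 DEGs the same way (0.498% of the genes tested without 5XFAD were upregulated DEGs). The disease-associated microglia list had a median of -0.08 without 5XFAD, against 0.37 with it, and neither its difference nor that of the other lists was tested. Apoc1, an apolipoprotein gene, was a DEG in both in opposite directions (0.76 and -0.79, interaction unadjusted p = 0.000909).

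**Figure D5:**
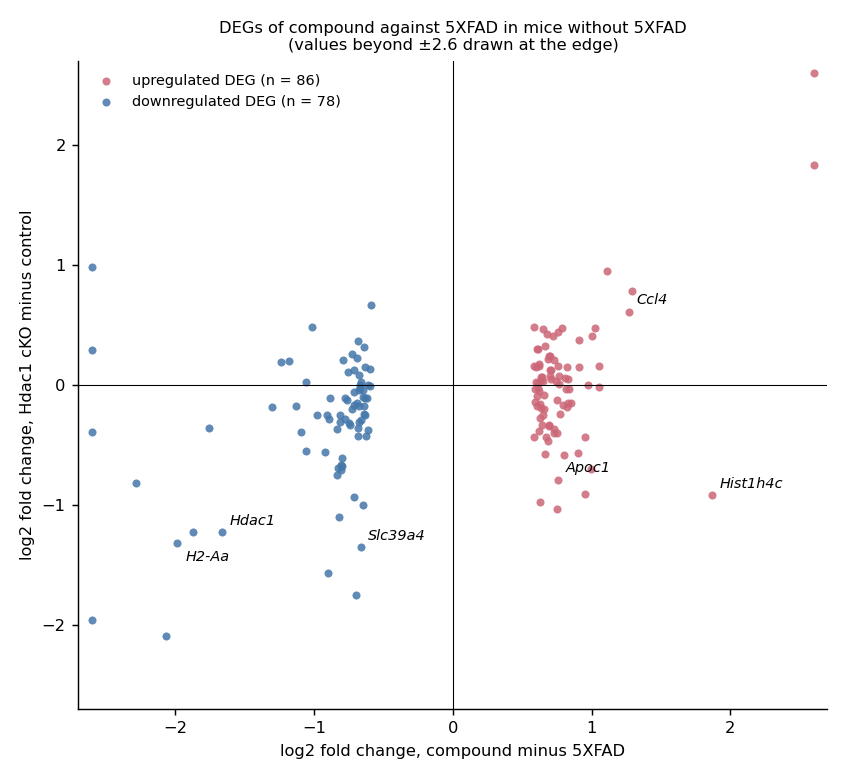
Log2 fold change of the DEGs on the 5XFAD background (x axis, compound minus 5XFAD) against that without 5XFAD (y axis, Hdac1 cKO minus control), both on the log2(FPKM + 1) scale, for 86 upregulated and 78 downregulated DEGs tested in both. Values beyond 2.6 in size are drawn at the edge. Downregulated DEGs lie mostly below 0 on the y axis (59 of 78), and upregulated DEGs lie on either side.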

How the data were processed

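Total RNA of the hippocampus was sequenced by the authors as 3′ Digital Gene Expression libraries. Per the labels, TopHat, Bowtie and Cufflinks 2.0.0 were used with mm9. The deposited values are FPKM, 1 per gene and mouse, scaled by the authors to mapped fragments and transcript length. No fragment counts were used, so depth was estimated only as a ratio between libraries, from the smallest steps between FPKM values, and no counting interval was computed. Division by length sets which genes pass a filter on FPKM and, through the added 1, how far the fold change of a low gene is drawn toward 0.

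Values were taken as log2(FPKM + 1), without further normalization, and the 14326 genes whose mean over the 11 mice reached 0.5 FPKM were fitted with limma 3.58.1 (R 4.3.3, trend and robust options) without covariates. Only the 6 5XFAD and 5 compound mice entered. DEGs changed 1.5-fold or more with an unadjusted p under 0.05. The study's methods name no test behind these thresholds. Adjusted p values are Benjamini-Hochberg over all genes tested. Exact permutation tests covered all 462 splits of the mice (Python 3.11.15, scipy 1.17.1). The interaction also used the 4 control and 5 Hdac1 cKO mice. The fit was tested on simulated data. The labels give no batch, and nothing says that mice with the same number were littermates.

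The comparison, the members and the gene lists were chosen with earlier results of these data known. Genes were named by a rule: Hdac1, Hdac2, Ogg1, Gfap, Thy1 and the genes whose promoters the study examined, with Kl; genes past an adjusted p of 0.05; up to 12 DEGs without overlap in each direction by p; up to 4 DEGs in each direction per list, or its 2 most abundant genes where it had none; and the 6 genes of lowest interaction p. Other list members past an unadjusted p of 0.05, Ttr and the DEGs of both comparisons were named after their values were seen. RefSeq promoters were matched by symbol for 10568 and by synonym for 595 of the genes tested (77.9%). Hdac1, Ccl4, Aqp4 and H2-Ab1 had no entry. Alternatives were a pseudocount of 0.1, other filters, quantile and median scaling, limma without trend, all 4 groups in one fit, a replicate block, a ratio of means, and each mouse left out. Nuclei of GFAP+ cells and ChIP-seq were not used here. Some genes covered by the rule are not reported here.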

Additional observations from a re-analysis of the deposited data

Results flagged for a closer look

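In 8 of 100 sets of values (33 genes and 17 lists, in each of both groups), 1 mouse stood apart from the rest of its group by Dixon's criterion, and chance alone marks about 1 in 20 such sets. Choroid plexus genes were high in compound mouse 1, where Ttr reached 13910 FPKM and the other compound mice held 58.9 to 265 FPKM, and a mean log2(FPKM + 1) of 4.51 over the choroid plexus list against 1.36 to 1.60. Reactive astrocyte genes were high in compound mouse 4, at 3.31 against 2.58 to 2.74. This is also the mouse with the highest microglia levels and the deepest of the compound libraries. Thalamus genes, which can mark adjoining tissue, were high in 5XFAD mouse 6, at 3.17 against 1.89 to 2.19. Among single genes, Hdac2 was low in 5XFAD mouse 2 (12.8 FPKM against 18.3 to 21.7 FPKM), and Slamf9 was high in the same mouse (3.93 FPKM against 2.72 to 3.07 FPKM) but below every compound mouse. Ung was detected at 0.885 FPKM in compound mouse 4 and at no more than 0.174 FPKM in the others. Ccl2 was at 3.37 FPKM in compound mouse 3 against 1.07 to 1.48 FPKM. The part of dissection or depth in these values was not tested.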

How the results depend on the processing

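Hdac1 was lower in compound mice with a limma adjusted p under 0.05 in all 22 alternatives, with a log2 fold change between -1.73 and -1.56 when a mouse was left out. The pseudocount of 0.1 gave 325 DEGs, 162 higher and 163 lower. With an adjusted p in the DEG rule 1 remained, Hdac1. Leaving out each mouse gave 183 to 251 DEGs, 89 to 129 higher and 80 to 149 lower, with 149 lower without compound mouse 1, and 1 to 4 genes at an adjusted p under 0.05. The share of DEGs that were higher was 53.8%, but 40.6% without compound mouse 1 and 41.2% without compound mouse 4. All 4 groups in one fit gave 3 genes at an adjusted p under 0.05 (Hdac1, Aqp4 and Fkbp1b). Without 5XFAD mouse 3 there were 4 (Hdac1, Ccl4, Fam25c and Snord99), and without compound mouse 5 also 4 (Hdac1, Hist1h4c, Myadml2 and Ninj2). Of the alternatives chosen after seeing the data, log2 Ttr as a covariate gave 2 (Hdac1 and Cox6b2) and 227 DEGs, and relative depth gave 1 and 221. The replicate block gave 205 DEGs (115 higher, 90 lower), and Hdac1 at -1.66 with a limma adjusted p of 0.0208. Correlations between mice of the same number, of their deviations from the group means, were -0.0729 to 0.0506. The best match of any number reached only 0.0506 to 0.114, so whether the numbers pair mice cannot be told from these values. The interaction gave 0 to 1 genes when a mouse was left out, Cd63 without 5XFAD mouse 3 or compound mouse 5. The shorter GC core raised the share of promoters from 11.4% to 35.7%. The other counts of DEGs stayed within 1.5 times. The cause was not tested for any of these. Of 47 DEGs followed singly (those of the naming rule besides Hdac1 and the list members described), 18 were DEGs in all 22 alternatives, 3 (Btc, Igbp1b and Hist4h4) in every alternative whose filter they passed, 26 were lost in at least 1 and none changed sign. Ace, Apoc1, Sox18, Fam25c, Ninj2, Rprl3 and the small RNA genes were not among the 47. The calls lost include Tyrobp, Cd68, Fcer1g, Ccl3, Itgb2, Cd86, Hopx, Commd10, Slc16a7, Mknk1, Nthl1, Ung, H2-Aa, Cd74, Tap1, Dsp and E130102H24Rik.

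With 5 and 6 mice and an unadjusted threshold, the DEGs other than Hdac1 are candidates. Low genes are limited by depth, which was lowest in compound mice 1 to 3. An adjusted p above 0.05 does not show that a gene did not differ.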

Other observations

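Of 87 cytosolic ribosomal protein genes, 74 had a positive fold change, against 49.9% of all genes, and the median was 0.11. An unadjusted limma p under 0.05 was reached by 8, all higher (against 3.91% of all genes). Of 82 respiratory chain genes, 76 were positive (against 49.9%), with a median of 0.15. An unadjusted p under 0.05 was reached by 4, all higher (against 3.91%), and neither list held a DEG. The shift depended on the scaling: with quantile normalization the medians were 0.01 and 0.05, and the ribosomal list had 2 genes higher and 1 lower at an unadjusted p under 0.05. With relative depth as a covariate, chosen after seeing the data, 0 ribosomal and 1 respiratory chain gene had such a p. The cause was not tested. Ndufa9, a complex I subunit gene, was at 101 to 127 FPKM in 5XFAD mice and 139 to 149 FPKM in compound mice without overlap (log2 fold change 0.27).

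Lymphocyte markers were near the limit of detection, and 5 of 16 were tested, 3 with a positive and 2 with a negative fold change. The DEGs among them were the cytotoxic granule gene Nkg7 (0 to 2.02 FPKM in 5XFAD against 1.12 to 5.34 FPKM in compound mice, log2 fold change 0.90), the B cell receptor gene Cd79b (0.64) and the T cell kinase gene Lck (0.61), all upregulated, against 0.691% of all genes. Nkg7 was a DEG in all 22 alternatives, whereas Lck was lost in 11 of the 22 and Cd79b in 7 of the 17 that tested it. Cd79b passed the filter only through the compound mice (mean 0.912 FPKM, against 0.169 FPKM in 5XFAD mice), so its call is given as a value alone and the count is no sign of an excess. Of the 6 DEGs with a log2 fold change beyond 2.6 in size, 5 were small RNA genes named Snord or Mir, and the other was Rprl3 (-3.10). Snord99, Snord15a and Mir6948 were at 0 in every compound mouse and Mir682 and Mir7211 were higher. Such short genes are divided by a small length in FPKM, and their groups overlapped. Dsp, a desmosome gene that marks dentate granule cells, was downregulated (log2 fold change -0.71), as 1 DEG of 9 tested markers, against 0.593% of all genes. It was not a DEG without 5XFAD mouse 1 or without compound mouse 4. Of the 9 markers, 8 had a negative fold change, with a median of -0.23, where 49.9% of all genes were positive.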
